A study of Homo sapiens with 4 samples.

Results

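The Notch receptors NOTCH1, NOTCH2 and NOTCH3, the ligands JAG1, JAG2 and DLL1, the DNA-binding factor RBPJ and the effectors HES1, HEY1 and HEY2 were followed in GIST-T1 cells given miR-34a. Every probe annotated with exactly 1 of these 10 gene symbols was taken, whatever its value, which gave 13 of the 50599 gene probes on the array and 10 of its 36337 gene names. GIST-T1 is an established human cell line from a gastrointestinal stromal tumor (GIST). All 4 samples were GIST-T1 cells transfected by nucleofection (3000000 cells, 100 pmol of RNA) 48 h before RNA extraction: 2 received a synthetic miR-34a mimic and 2 received a non-targeting mimic, Negative Control #1. Each RNA was labeled with a single dye and hybridized to its own Agilent array. The sources do not say whether the 2 arrays of a condition came from separate transfections, so the p-values measure only the spread between these samples, which may be technical. A single cell line was transfected transiently, and a lower level in every cell cannot be told apart here from a larger decrease in a fraction of the cells.

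Notch is a receptor that is cut into action. A ligand of the Delta or Jagged family on a neighboring cell binds the receptor, ADAM proteases and then the γ-secretase complex cleave it, and the released intracellular domain enters the nucleus. There it joins RBPJ and a Mastermind coactivator at DNA, and genes of the HES and HEY families, which encode transcriptional repressors, are switched on. miR-34a is a tumor-suppressive microRNA induced by p53, and NOTCH1, NOTCH2, JAG1 and DLL1 are among its known targets. A microRNA pairs with mRNA mainly through its seed, bases 2 to 8, and usually lowers the level or the translation of that mRNA. An array reads only the mRNA level.

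The mature sequence of miR-34a is shown with its seed in capitals, since the probes were searched for letters that pair with it (RefSeq, GRCh38.p14, chr1:9151735-9151756, minus strand). Pairing itself was not measured. The mRNA letters that pair with it are CACTGCC. The only one of the 13 Notch probes that holds them is the DLL1 probe A_23_P167920, and 30 bases of that probe are given below it with the match in capitals (hg19 chr6:170591652-170591681, minus strand, bases 21 to 50 of the 60 bases of the probe).
hsa-miR-34a-5p: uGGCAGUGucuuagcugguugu
DLL1 probe, bases 21 to 50: ctaagaagcatgCACTGCCtgagtgtatat
The DLL1 match is followed by T, and the part of the mRNA in which it lies was not determined. The 6 letters ACTGCC were likewise found in no other Notch probe. A probe covers only a short stretch of an mRNA, so a missing match describes the probe and not the transcript. Over the array, 220 probes (0.435%) hold CACTGCC, and of the 98 that were tested 8 (8.16%) lay more than 1.5-fold below the control, against 4.78% of the 21376 tested probes without it. For the shorter ACTGCC the shares were alike, with 14 of 286 tested probes (4.90%) against 4.80% of those without it.

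Intensities are given as log2 of the processed signal minus the 75th percentile of the same array, so 0 is that percentile and a difference of -1 is a halving. Since each probe has its own brightness, values were compared between arrays and not between probes. Between 41.8% and 45.2% of probes were well above background on an array. The 6 GIST markers KIT, ANO1, ETV1, PRKCQ, CD34 and PDGFRA were well above background on all 4 arrays, whereas the epithelial genes CDH1 and KRT19 were so on none. Of the smooth muscle genes, DES and SMTN were so on all 4 and MYH11 on none. Of the endothelial genes, PECAM1 was so on none, VWF on 1 and CDH5 on 2. Of the leukocyte genes, PTPRC was so on 2, CD3E on 3 and CD68 on all 4, as was the epithelial gene EPCAM. Tested were the probes that the scanner software placed clearly above background on the 2 mimic arrays, on the 2 control arrays or on all 4. This held for 21474 probes, 12 of the Notch probes among them. The HEY2 probe A_24_P363408 was too dim on all 4 arrays (-5.25 and -5.21 with the mimic, -5.20 and -5.16 in the control). HEY2 therefore has no measured difference.

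With miR-34a, DLL1 and NOTCH1 mRNA were lower on both arrays and at both NOTCH1 probes, JAG1 was higher, and NOTCH2, NOTCH3, JAG2 and HEY1 differed by at most 0.14 on the log2 scale. More than 1.5-fold lower were 4 of the 12 tested Notch probes, where 4.8% of all tested probes were, and 0 were higher by as much, where 2.11% of all were. After quantile normalization the counts were again 4 and 0, where 3.61% of all tested probes were lower and 3.27% higher. The 4 were DLL1, both NOTCH1 probes and HES1, the last through a single array. The median difference over the 12 was -0.11, beside -0.01 over all tested probes. No probe on the array reached an adjusted p under 0.05 in limma with 2 arrays a condition (0% of 21474), and the smallest adjusted p was 0.0948. At an unadjusted p under 0.05, limma counted 3 Notch probes lower (11.6% of all tested probes) and 2 higher (12.7% of all). Student's t-test, which the study's methods name for continuous variables but not for the arrays, was also run. At the same unadjusted threshold it likewise counted 3 lower (8.65% of all) and 2 higher (10.9% of all), and 0 after Benjamini-Hochberg adjustment. Where limma was allowed a variance that follows the signal, 3 Notch probes were lower (3.6% of all) and 2 higher (3.81% of all) at an adjusted p under 0.05. Those were DLL1, both NOTCH1 probes, JAG1 and 1 RBPJ probe. With another background correction (normexp), 3 were called, DLL1, 1 NOTCH1 probe and JAG1, beside 4.08% of all tested probes. The 2 mimic arrays lay below both control arrays at 5 Notch probes (30.1% of all tested probes) and above both at 3 (30.4% of all).

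**Figure D1:**
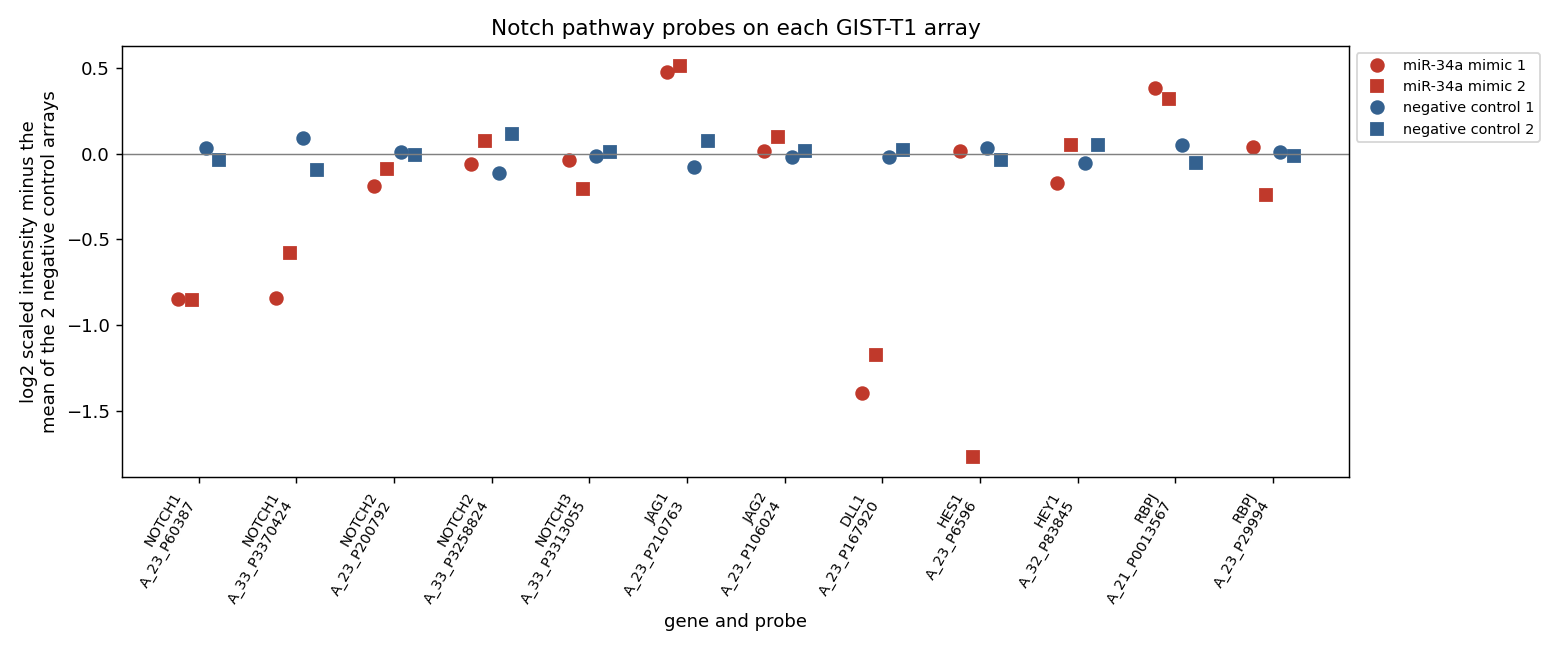
Scaled log2 intensity of the 12 tested Notch probes on each of the 4 arrays, with the mean of the 2 negative control arrays set to 0 for each probe. The 2 mimic arrays lie well below the controls for DLL1 and both NOTCH1 probes and above them for JAG1, while HES1 is low on mimic array 2 alone.

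Among the receptors, NOTCH1 had the largest differences. The NOTCH1 probe A_23_P60387 (hg19 chr9:139389764-139389823, minus strand) read -1.95 and -1.96 with the mimic against -1.06 and -1.14 in the control. Both mimic arrays were below both controls, by many times the gap between replicates. The difference was -0.85 (SE 0.058, adjusted p = 0.0948 by limma and 0.0333 with the variance trend), or 1.80-fold lower. The array carries this probe on 10 spots, which are technical repeats within an array. The usable spots ran from -2.41 to -1.57 and from -2.44 to -1.53 on the 2 mimic arrays, and from -1.29 to -0.93 and from -1.33 to -0.99 on the control arrays. No mimic spot reached a control spot.

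The other NOTCH1 probe, A_33_P3370424 (hg19 chr9:139390523-139390582), lies further toward the 5′ end of the same RefSeq transcript. It read -0.41 and -0.14 with the mimic and 0.53 and 0.34 in the control, so again the conditions did not overlap. The difference of -0.71 (SE 0.13, adjusted p = 0.113 by limma and 0.0382 with the variance trend) was 1.64-fold. Under normexp the first probe's difference shrank to -0.38, under 1.5-fold, and this one's to -0.52. The spacing between the 2 probes did not separate the conditions, with a change of -0.14. An exact permutation test over the 4 arrays, the first of 3 such tests of probe pairs, gave a two-sided p of 0.667. With 2 arrays against 2 its p cannot fall below 0.333, so it could not have shown that the probes disagree.

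**Figure D2:**
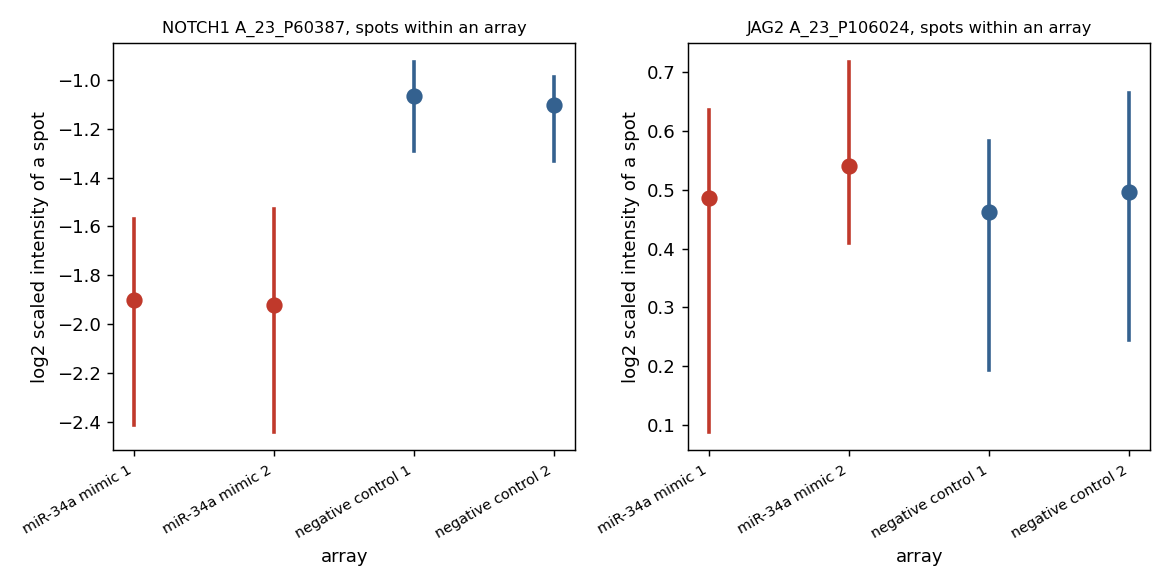
Scaled log2 intensity of the repeated spots of NOTCH1 probe A_23_P60387 (left) and JAG2 probe A_23_P106024 (right) on each array. The point is the median of the 9 or 10 usable spots of that array and the line runs from the lowest to the highest: the NOTCH1 ranges of the 2 conditions are separate, and the JAG2 ranges overlap on all 4 arrays.

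NOTCH2 and NOTCH3 encode receptors of the same build. NOTCH2 probe A_23_P200792 read 1.94 and 2.05 with the mimic and 2.14 and 2.12 in the control, a difference of -0.14 (95% interval -0.32 to 0.05, limma adjusted p = 0.291). The second NOTCH2 probe, A_33_P3258824, read -0.14 and -0.01 against -0.19 and 0.03, a difference of 0.01 (95% interval -0.31 to 0.33, limma adjusted p = 0.971). That probe also lists a transcript of NOTCH2NLA, a partial copy of NOTCH2, so its signal cannot be given to NOTCH2 alone. The spacing between the 2 NOTCH2 probes changed by -0.15 and did not overlap between the conditions. The exact two-sided permutation p was 0.333, the smallest that 2 arrays against 2 can give. The test could therefore not show that the probes disagree. NOTCH3, at A_33_P3313055, read 3.23 and 3.06 against 3.25 and 3.28, a difference of -0.12 (95% interval -0.36 to 0.12, limma adjusted p = 0.42). None of these 3 intervals reaches a 1.5-fold change in either direction.

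The ligands did not share a direction. DLL1, a Delta-type ligand, read 2.46 and 2.68 with the mimic against 3.83 and 3.87 in the control at A_23_P167920, the probe that carries the seed match shown above. Its processed signals were 797 and 935 with the mimic and 2096 and 2089 in the control. The conditions were far apart beside a gap of 0.22 between the mimic arrays and 0.04 between the controls. The difference was -1.28 (SE 0.099, adjusted p = 0.0948 by limma, 0.00813 with the variance trend and 0.0197 under normexp), which made DLL1 2.44-fold lower. Of all tested probes, 0.885% had a difference as low. Under normexp the DLL1 difference was -1.23.

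JAG1, a Jagged-type ligand and a known miR-34a target, was on the other side. Its probe A_23_P210763 read 0.81 and 0.84 with the mimic against 0.25 and 0.40 in the control, so both mimic arrays were higher. The difference was 0.50 (SE 0.078, adjusted p = 0.101 by limma, 0.0332 with the variance trend and 0.0431 under normexp), or 1.41-fold higher, and 3.25% of tested probes had one as high. Under normexp the JAG1 difference shrank to 0.36. JAG2, measured on 10 spots, read 0.46 and 0.54 against 0.42 and 0.46. That difference of 0.06 had a 95% interval of -0.12 to 0.23 (limma adjusted p = 0.584), and the spots of the 2 conditions overlapped. The 3 ligands thus included 1 lower, 1 higher and 1 with a difference of 0.06. None of the 3 had an adjusted p under 0.05 in limma without the variance trend or normexp.

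**Figure D3:**
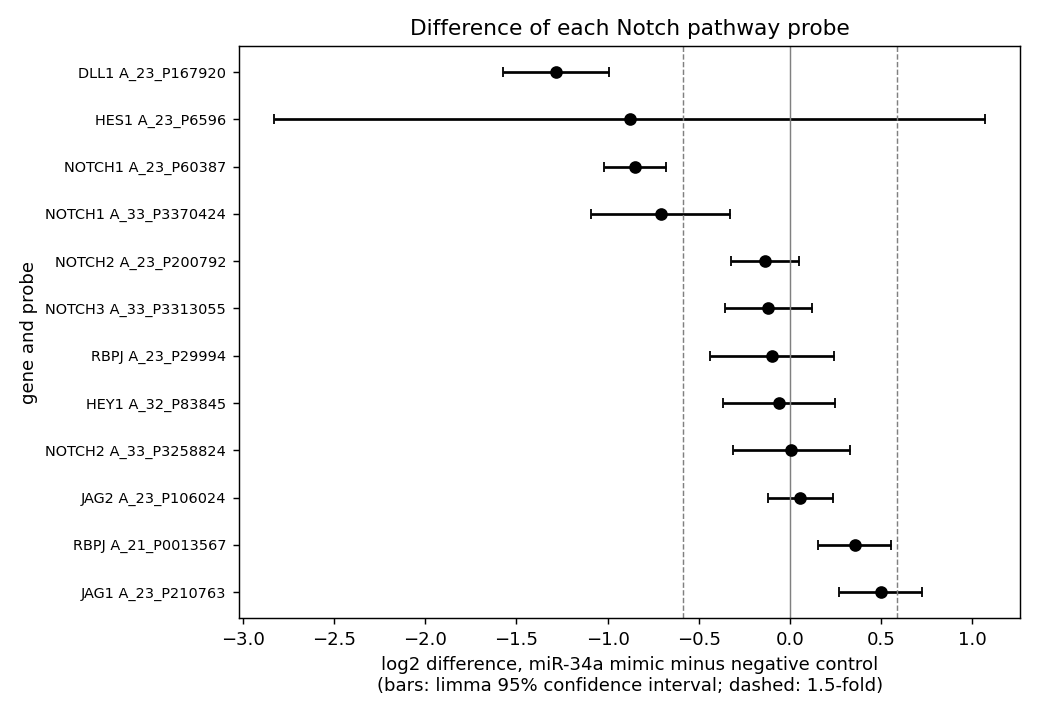
Difference of each tested Notch probe (log2, miR-34a mimic minus negative control) with its 95% confidence interval from limma, and dashed lines at 1.5-fold. DLL1 is lowest at -1.28 and JAG1 highest at 0.50, and the wide interval of HES1 (-2.83 to 1.07) covers 0.

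RBPJ, the factor through which all Notch receptors reach DNA, gave differences of opposite sign at its 2 probes. Probe A_21_P0013567 (hg19 chr4:26432416-26432475) read 3.55 and 3.49 with the mimic and 3.21 and 3.11 in the control, both mimic arrays higher. Its difference was 0.35 (SE 0.068, adjusted p = 0.119 by limma and 0.0292 with the variance trend). Probe A_23_P29994 (hg19 chr4:26432686-26432745) read 4.37 and 4.09 against 4.34 and 4.31, with mimic array 1 above both controls and mimic array 2 below them. Its difference was -0.10 (95% interval -0.44 to 0.24, limma adjusted p = 0.618). Both probes list the same 4 RefSeq transcripts. The spacing between them was 0.45 narrower with the mimic than without. The conditions did not overlap in it, with an exact two-sided permutation p of 0.333. That is again the smallest p that 2 arrays against 2 can give, so the test could not show that the probes disagree. How often probe pairs of other genes separate in this way was not counted.

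HES1 is the best known direct output of Notch. Its probe A_23_P6596 read -0.18 and -1.97 with the mimic against -0.16 and -0.23 in the control. Only mimic array 2 was low, while mimic array 1 lay between the 2 controls. The difference of -0.88 (SE 0.67, 95% interval -2.83 to 1.07, limma adjusted p = 0.459) rested on that array and was 0.01 without it, and -1.77 without mimic array 1. The HES1 spot on mimic array 2 carried no outlier flag, and its mean signal of 74.8 over a local background of 36 compared with 154 to 163 on the other arrays. Of all tested probes, 0.503% had a gap between the 2 mimic arrays as large as that of HES1, 1.79. HEY1 read -0.98 and -0.76 with the mimic and -0.86 and -0.76 in the control, a difference of -0.06 (95% interval -0.37 to 0.25, limma adjusted p = 0.744). Without mimic array 1 it was 0.05.

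RBPJ binds DNA at TGGGAA, and a stretch of the HES1 promoter is shown because it holds this motif at 2 places, in capitals, 84 and 70 bases before the start of the gene (RefSeq, GRCh38.p14, chr3:194136048-194136107, plus strand).
HES1 promoter: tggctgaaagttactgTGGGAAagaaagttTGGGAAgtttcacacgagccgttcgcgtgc
TGGGAA was searched on both strands in the 300 bases around each gene start. It occurred at HES1, HEY2 and 1 RBPJ start, in 3 of 8 Notch genes with a window (HEY1 was not searched and DLL1 is not listed), and in 28.1% of the 27305 genes of the table. A gene can have several windows, and 3 of the 12 Notch windows (25%) held the motif, beside 24.0% of all windows. Of the 3 genes with the motif, HEY2 was not measured above background and HES1 differed on 1 array only. The 2 RBPJ probes differed by 0.35 and -0.10, and whether they disagree could not be shown.

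The rest of the pathway was described with a list of 76 further genes, of which 75 are on the array by the names used and 62 were tested, each at its brightest tested probe. With the mimic, 4 of these genes lay more than 1.5-fold below the control (4.83% of all 16192 tested gene names) and 1 lay above it (1.95% of all). Of these 5, MAML3 and HEYL were tested only through the condition in which they were brighter, so that their direction was set by the filter. By limma 0 passed an adjusted p under 0.05. At an unadjusted p under 0.05, 12 were lower (11.9% of all) and 8 higher (13% of all). With the variance trend, 6 were lower at an adjusted p under 0.05 (3.95% of all) and 2 higher (4.28% of all). The median over the list was -0.05, beside -0.01 over all gene names. Below 0 were 35 of the 62 genes, beside 8307 of all 16192 gene names.

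NOTCH4, the remaining receptor, differed by 0.13 (limma adjusted p = 0.686). Among the 3 other ligands tested, DLK1, a noncanonical ligand, differed by -0.34, DLK2 by -0.30 and DLL3 by 0.17, with limma adjusted p of 0.15, 0.42 and 0.225. DLL4 and DNER were too dim on all 4 arrays. Of the 7 genes that add sugars to the receptor, 5 were below 0, as were 8307 of all 16192 gene names. The largest differences were at LFNG, a Fringe glycosyltransferase (-0.37), POFUT1, the O-fucosyltransferase (-0.35), and GXYLT1, a xylosyltransferase (-0.29), with limma adjusted p from 0.133 to 0.248.

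Of the 9 tested genes of receptor cleavage, 8 had a difference above 0, as had 48.7% of all tested gene names. None passed 1.5-fold or an adjusted p under 0.05 in limma, and the median was 0.11. PSENEN, a γ-secretase subunit, read 3.04 and 3.04 with the mimic and 2.72 and 2.63 in the control. That difference of 0.37 (SE 0.062) had an adjusted p of 0.106 by limma and 0.0236 with the variance trend. APH1B, another subunit, differed by 0.36 and the convertase FURIN by 0.18, with limma adjusted p of 0.149 and 0.53. ADAM10, the protease of the first ligand-induced cut, was the 1 gene below 0, at -0.10 (limma adjusted p = 0.391), and its dimmer probe differed by 0.25.

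Of 14 tested genes of endocytosis and receptor turnover, 9 were below 0 (8307 of all 16192 gene names) and none passed 1.5-fold. The largest differences were at NEURL, an E3 ligase of ligand endocytosis (-0.35), NUMBL, an adaptor related to NUMB (-0.31), and DTX3L, an E3 ligase of the Deltex family (-0.31), with limma adjusted p from 0.167 to 0.213. NEURL1B, named for passing the variance-trend fit after its values were seen, was higher by 0.27 (adjusted p = 0.0241 in limma with the variance trend).

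Coactivators were below 0 at 5 of 8 genes, where 8307 of all 16192 gene names were. MAML3, a Mastermind protein, was not well above background on either mimic array (-3.25 and -4.48) and read -2.48 and -0.62 in the control. With the dim arrays set at the lowest signal still well above background there, it came to 3.20-fold lower, and to 1.68-fold against control array 1 alone. These are not strict bounds. The limma 95% interval of its log2 difference, -4.74 to 0.11, covered 0 (limma adjusted p = 0.217). CREBBP, a histone acetyltransferase, read 1.32 and 0.66 against 1.41 and 1.51, a difference of -0.46 that came mostly from mimic array 2 (limma adjusted p = 0.341). MAML2 was at -0.36 (limma adjusted p = 0.101). KAT2B, another acetyltransferase, was lower by 1.28-fold and passed in limma with the variance trend (adjusted p = 0.0157), as seen after its values were known.

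The corepressors on the list were below 0 at 8 of 13 genes, where 8307 of all 16192 gene names were. HDAC1, a histone deacetylase, read 4.73 and 4.74 with the mimic and 5.41 and 5.40 in the control. The mimic arrays agreed to 0.01, and the difference of -0.67 (SE 0.052, adjusted p = 0.0948 by limma and 0.00669 with the variance trend) was 1.59-fold. TLE3, a Groucho-type corepressor, differed by -0.64 (SE 0.37, limma adjusted p = 0.363), and control array 1, at -2.47, was close to the mimic arrays at -2.71 and -2.53, while control array 2 read -1.50. L3MBTL3, a chromatin reader that binds RBPJ, was at -0.44 (limma adjusted p = 0.292). TLE1, named after its values were seen, differed by -0.32 and passed only with the variance trend (limma adjusted p = 0.0385), with its 4 probes between -0.47 and -0.16. NCOR1 differed by 0.04 at its brightest probe. A dimmer NCOR1 probe read -2.56 and -1.02 against -0.90 and -0.88, so that only mimic array 1 was clearly low (limma adjusted p = 0.399).

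Among 7 tested target genes, 5 were below 0, as were 8307 of all 16192 gene names. BCL2, an inhibitor of apoptosis and itself a known miR-34a target, read 0.40 and 0.41 with the mimic and 1.14 and 1.18 in the control. Its difference of -0.76 (SE 0.054, adjusted p = 0.0948 by limma and 0.0102 with the variance trend) was 1.69-fold, and its second probe A_33_P3355185 differed by -0.58, just under 1.5-fold. HEYL, a HEY family repressor, read -2.48 and -2.25 with the mimic but was not well above background on either control array (-3.33 and -3.72). With those arrays set as for MAML3, it came to 1.80-fold higher, again not a strict bound (limma adjusted p = 0.0987). The filter had set that direction. MYC read -1.74 and -1.72 against -2.33 and -2.19, a difference of 0.53 (limma adjusted p = 0.0954, 0.131 with the variance trend).

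HES4 and CCND1, 2 further target genes, were named after their values were seen because they passed in limma with the variance trend. HES4, a HES family repressor, differed by -0.37 (adjusted p = 0.0261 in that limma fit) and CCND1, cyclin D1 and a known miR-34a target, by -0.21 (adjusted p = 0.0479). HES5, HES7, HES2, CDKN1A, GATA3 and SOX9 were on the array and not tested, being too dim. HES6, another HES family member, differed by -0.10 at its brightest probe (limma adjusted p = 0.344), and its 4 probes ran from -0.21 to -0.02.

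**Figure D4:**
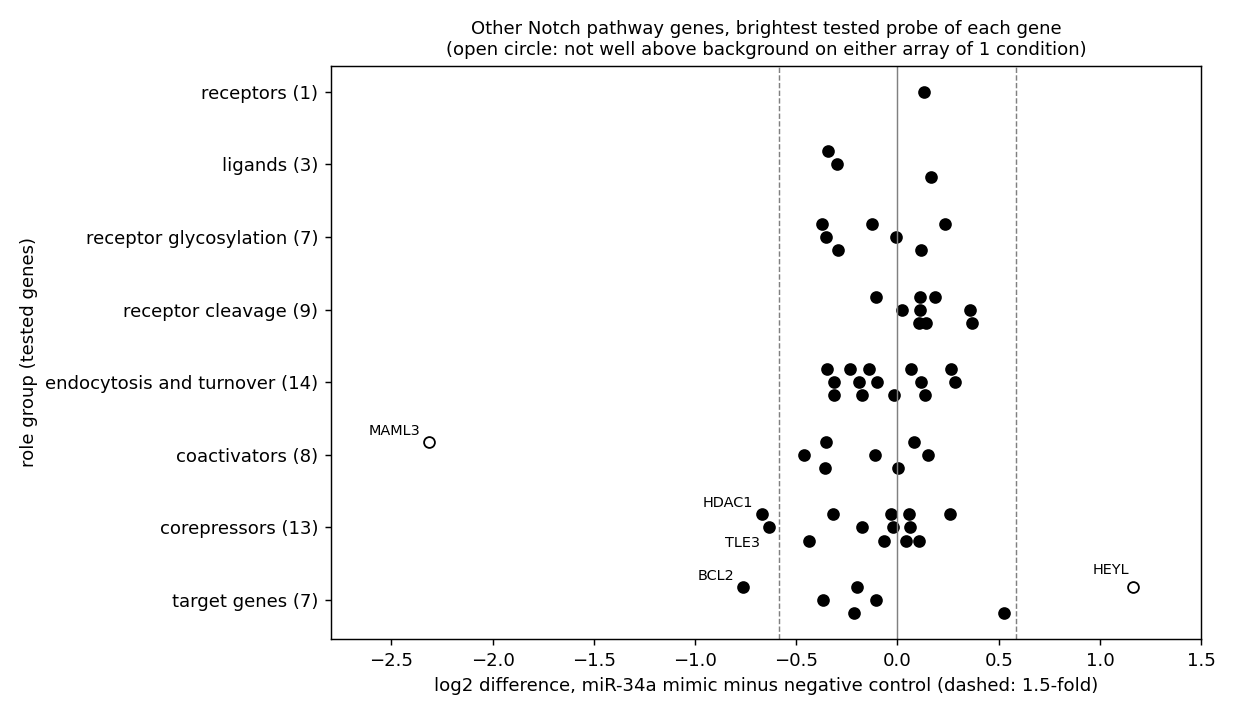
Difference (log2, miR-34a mimic minus negative control) of 62 further Notch pathway genes by role, 1 circle per gene, with dashed lines at 1.5-fold. MAML3, BCL2, HDAC1 and TLE3 lie below the lower line and HEYL above the upper one. Open circles were not well above background on either array of 1 condition, so their place is not exact.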

How the data were processed

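GIST-T1 RNA was run on 4 one-color arrays (SurePrint G3 Human v2, 60-base probes annotated to hg19). The authors deposited the scanner output of Feature Extraction 10.7, whose processed intensity is background-subtracted, and a table of the same values. Spots flagged as outliers were dropped, spots of a probe averaged, and log2 intensity set against each array's 75th percentile. Probes flagged well above background on the 2 arrays of either condition, or of both, were tested with limma 3.58.1 (R 4.3.3), Benjamini-Hochberg adjusted over 21474 probes, and the code was tested on simulated data. Values past 1.5-fold are counted as in the study's methods. All 4 arrays shared a slide and a scan, and their number limits the precision. Genes and lists were chosen with earlier results of these data known. Every Notch probe is named, and of the wider list each gene past 1.5-fold plus the 3 with the largest difference in each role, other names being marked. EOGT was not found among the array's gene names, and KTELC1 and NEURL1 were read under POGLUT1 and NEURL. Alternatives were quantile normalization, the percentile over detected probes, normexp (offset 50), no or a stricter filter and the authors' table. Others were the replicate block, a variance trend, Student's t-test and leaving out each array. Promoter and microRNA sequences came from RefSeq tables (GRCh38.p14).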

Additional observations from a re-analysis of the deposited data

How the results depend on the processing

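The 12 Notch probes were recomputed under 13 alternatives each. DLL1 (-1.40 to -1.17), both NOTCH1 probes, JAG1 and RBPJ probe A_21_P0013567 kept their direction under all 13. So did JAG2, NOTCH3 and NOTCH2 probe A_23_P200792, whose differences were small. A change of filter, the replicate block, the variance trend and the t-test leave a probe's difference as it was. Its direction could therefore change only under the other alternatives. HES1 ran from -1.77 to 0.014 when single arrays were left out (0.014, the reverse direction, without mimic array 2). NOTCH2 probe A_33_P3258824 (-0.11 to 0.12), HEY1 (-0.17 to 0.05) and RBPJ probe A_23_P29994 (-0.24 to 0.04) also crossed 0. These 3 were called under no alternative that kept 2 arrays a condition. At an adjusted p under 0.05 in limma, 5 Notch probes and 8 wider genes were called with the variance trend (7.41% of all probes). With normexp 3 and 4 were called (4.08% of all probes), against 0 and 0 in the main fit. Lower by more than 1.5-fold were 1 Notch probe and 2 wider genes under normexp, whose offset of 50 compresses dim probes by construction (0.862% of all probes), and 7 of 75 wider genes with no filter (13.5% of all probes). Higher by as much were 2 wider genes after quantile normalization (3.27% of all probes), 0 with normexp (0.317%) and 0 among probes detected on all 4 arrays (1.42%). When single arrays were left out, 1 to 2 were (2.45% to 2.64% of all probes). The replicate block kept the counts at 4 and 0 Notch probes and 4 and 1 wider genes, and called 0. Deviations of same-numbered arrays correlated at -0.03, so no deviation shared by number was seen. Whether the arrays were paired in the experiment is not known. Without mimic array 1, NOTCH1 probe A_33_P3370424 came to -0.58, and without mimic array 2, HES1 left the count. More than 1.5-fold lower were then 3 Notch probes either way, beside 6.62% and 4.61% of all probes. The wider list had 3 to 5 lower genes over the single arrays left out, beside 4.61% to 6.62% of all probes. HEY2 and 13 wider genes were too dim to test.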
